A study of Homo sapiens with 6 samples.

Results

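Interferon-stimulated genes are the antiviral and regulatory genes that cells switch on after an interferon has bound its receptor. A fixed list of 37 of them was followed in MIA PaCa-2, a human pancreatic cancer cell line, after exposure to recombinant human cytoglobin (rhCYGB), a heme globin protein made in E. coli with a histidine tag. The members were taken by gene symbol from a table of 35993 genes. Of the 37, 32 held enough reads for a test, 3 were removed as too weakly expressed, and 2 (IFI44L and IRF7) had 0 counts in all 6 libraries.

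The comparison was of 3 libraries from untreated cells against 3 from cells given 4 µM rhCYGB for 48 h. Both groups were kept in DMEM with 1% FBS at that stage, had no other agent or genetic change named in the labels, and came from the same line. No buffer or control protein is named for the untreated group. The study reports that its rhCYGB preparation was free of endotoxin and not toxic in vitro. It also reports that rhCYGB slowed the proliferation of MIA PaCa-2 cells with rising dose and arrested their cell cycle. The part of slower growth in the results below was not tested. The study describes its experiments as replicated and independent, but does not state for these libraries whether each had its own culture, so p-values measure the spread between these libraries, which may be technical.

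The libraries held between 34838399 and 42271299 read counts on genes, and libraries of the same group differed by more than counting error. Keratin transcripts KRT8, KRT18 and KRT19 and the mesenchymal transcript VIM were abundant in every library, while EPCAM, another epithelial marker, was at 0 in all 6. KRT8 held 78515 to 96291 counts in untreated and 39463 to 45811 in rhCYGB libraries, KRT19 9494 to 11844 and 5886 to 6568, and VIM 301699 to 359568 and 387120 to 447853. KRT18 held 63337 to 74445 and 55766 to 65242, which overlap (log2 fold change 0.04, adjusted p = 0.315 from edgeR). Of 8 markers of leukocytes, endothelial cells and stellate cells or fibroblasts, the defining PTPRC, CD3E, PECAM1 and DCN were at 0 in every library, VWF, COL1A1 and DES had between 0 and 10 counts, and CD14 had 152 to 182 counts in untreated and 6 to 9 in rhCYGB libraries. The part of these marker differences in the results below was not tested. CYGB itself was at 0 in all 6 libraries.

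As background, type I and type III interferons act through receptors that carry the kinases JAK1 and TYK2, and signalling leads to a complex that holds STAT2 and IRF9. This complex binds the interferon-stimulated response element (ISRE) in the promoters of most genes of the list. Interferon gamma acts through another element, GAS. Several members of the list can also be switched on without interferon, through IRF1, IRF3 or NF-kB.

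The list did not move in 1 direction. With edgeR's quasi-likelihood test and a threshold of 0.05 on the adjusted p, 30 of the 32 tested members passed, 12 higher and 18 lower after rhCYGB, which is 93.8% against a background of 77.6% of the 14728 genes tested (39.0% higher and 38.6% lower). With a further limit of 2-fold or more, 13 members passed (40.6%), against 27.1% of all genes tested. The 3 that rose by 2-fold or more were ISG15, RSAD2 and HERC5, where the background share in that direction was 12.4%. The 10 that fell by 2-fold or more were PARP9, OAS3, IFI6, IFITM1, USP18, BST2, IFITM2, OAS1, IFITM3 and MX2, where the background share was 14.7%. The median log2 fold change of the 32 tested members was −0.36, against −0.0046 over all genes tested, with members between −2.18 and 1.82. The spread between libraries of a group was low (a biological coefficient of variation of 5.48%), so that even modest changes passed the adjusted threshold.

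**Figure D1:**
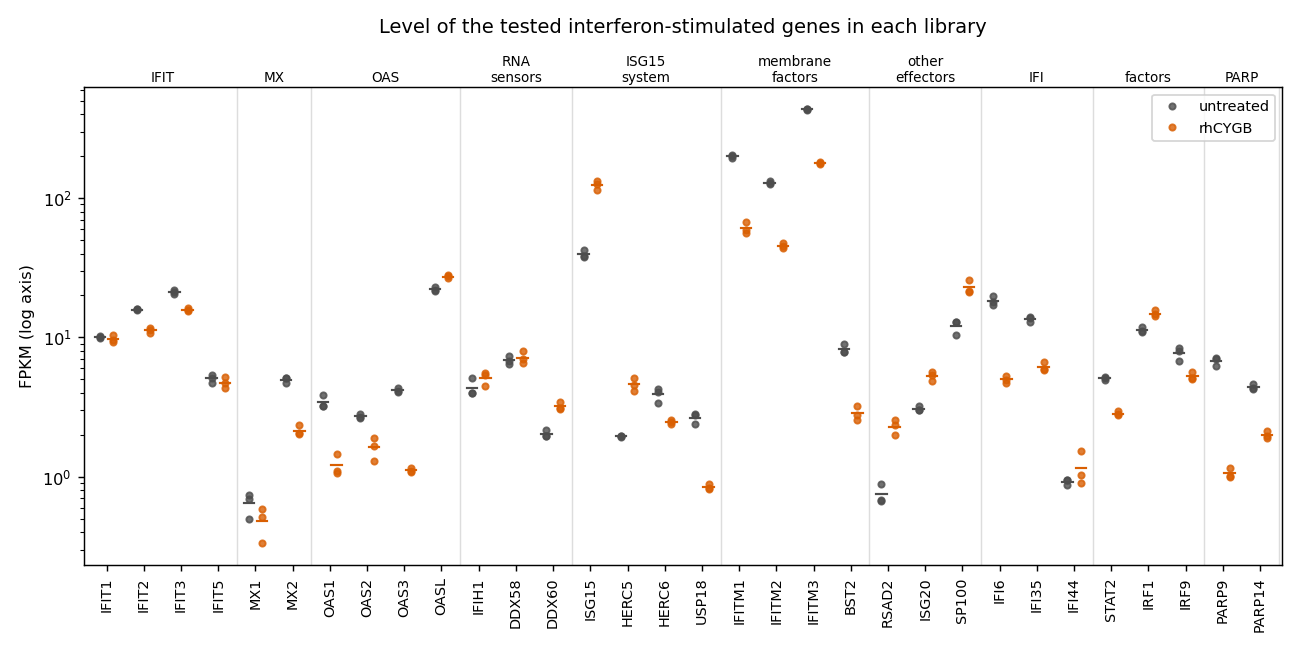
Level of the 32 tested interferon-stimulated genes as FPKM (log axis), grouped by protein family or role, with 1 point per library and a bar at the mean of 3 libraries for untreated (grey) and rhCYGB (orange) cells. The 3 IFITM genes held the highest untreated levels and fell, ISG15 rose from a mean of 39.4 to 124 FPKM, and MX1 stayed among the lowest in both groups.

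The upstream sequence of the 3 members that rose by 2-fold or more, and of the 3 that fell by most, is shown because these 6 genes moved in opposite directions while each carries a match to the ISRE-like motif TTTCNNTTTC. The sequences are the 250 bases before the listed start, on the strand of the gene, from the RefSeq promoter table in build GRCh38.p14, and capitals mark matches on either strand, which can overlap. They lie at chr1:1013247-1013496 (ISG15, + strand), chr2:6877527-6877776 (RSAD2, + strand, the second listed start), chr4:88456869-88457118 (HERC5, + strand), chr3:122564301-122564550 (PARP9, − strand), chr12:112938224-112938473 (OAS3, + strand) and chr1:27672193-27672442 (IFI6, − strand).
ISG15: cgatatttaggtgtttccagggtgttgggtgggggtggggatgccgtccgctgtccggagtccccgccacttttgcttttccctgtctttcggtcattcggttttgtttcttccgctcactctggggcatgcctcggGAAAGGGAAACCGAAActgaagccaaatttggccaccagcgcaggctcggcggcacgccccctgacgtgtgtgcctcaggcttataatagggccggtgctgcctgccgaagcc
RSAD2: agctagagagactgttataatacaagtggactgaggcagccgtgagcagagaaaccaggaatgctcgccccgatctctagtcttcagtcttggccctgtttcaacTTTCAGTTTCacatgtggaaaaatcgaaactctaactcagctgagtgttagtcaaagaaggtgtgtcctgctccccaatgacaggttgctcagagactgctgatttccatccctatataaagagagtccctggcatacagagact
HERC5: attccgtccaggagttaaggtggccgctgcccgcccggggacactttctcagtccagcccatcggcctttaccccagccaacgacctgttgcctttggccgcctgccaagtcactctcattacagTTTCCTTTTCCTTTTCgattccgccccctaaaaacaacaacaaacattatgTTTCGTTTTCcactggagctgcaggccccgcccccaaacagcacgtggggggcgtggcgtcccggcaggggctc
PARP9: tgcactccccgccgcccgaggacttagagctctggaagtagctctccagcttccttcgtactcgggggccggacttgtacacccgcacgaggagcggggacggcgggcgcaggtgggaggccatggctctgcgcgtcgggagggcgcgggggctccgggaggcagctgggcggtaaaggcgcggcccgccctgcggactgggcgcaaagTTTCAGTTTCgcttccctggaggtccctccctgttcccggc
OAS3: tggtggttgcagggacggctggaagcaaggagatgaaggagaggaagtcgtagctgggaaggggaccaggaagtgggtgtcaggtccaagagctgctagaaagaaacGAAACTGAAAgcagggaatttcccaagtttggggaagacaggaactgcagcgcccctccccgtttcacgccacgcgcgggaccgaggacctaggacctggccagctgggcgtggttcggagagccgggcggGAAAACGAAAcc
IFI6: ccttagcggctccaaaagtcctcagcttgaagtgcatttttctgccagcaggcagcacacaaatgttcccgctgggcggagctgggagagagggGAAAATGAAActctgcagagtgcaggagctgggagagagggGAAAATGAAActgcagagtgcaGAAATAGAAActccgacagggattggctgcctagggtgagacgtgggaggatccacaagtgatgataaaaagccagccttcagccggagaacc

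HERC5 and IFI6 held 3 matches each in these 250 bases, ISG15 and OAS3 held 2, and RSAD2 and PARP9 held 1. A promoter window of 300 bases (250 before to 50 after a listed start) could be matched for 29 of the 37 members, by gene number, with DDX58 listed there under its current symbol RIGI. The 8 without one were IFIT2, MX2, OAS2, OASL, USP18, IFITM2, TRIM22 and IRF7. At least 1 window of 20 of the 29 (69.0%) held the ISRE-like motif, against 1195 of 27305 genes (4.38%) and 3.57% of all 35116 windows of that length. Among members with a promoter, the match was present in 8 of the 11 that were higher and in 8 of the 13 that were lower at adjusted p under 0.05. All 3 members higher by 2-fold or more held it, as did 6 of the 7 lower by 2-fold or more. Motif matches describe the letters of the window only, and the list is known for this element, so the share over the list is not a result of the treatment.

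The GAS-like motif TTCNNNGAA, which reads the same on both strands and can overlap the ISRE-like motif, was present for 10 of the 29 members, against 9.38% of genes and 7.66% of windows. It was found for 2 of the 11 higher members (DDX60 and IRF1) and for 6 of the 13 lower members (BST2, IFITM1, OAS1, IFI35, IRF9 and PARP14). In all, 6 members held both motifs and 5 held neither.

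**Figure D2:**
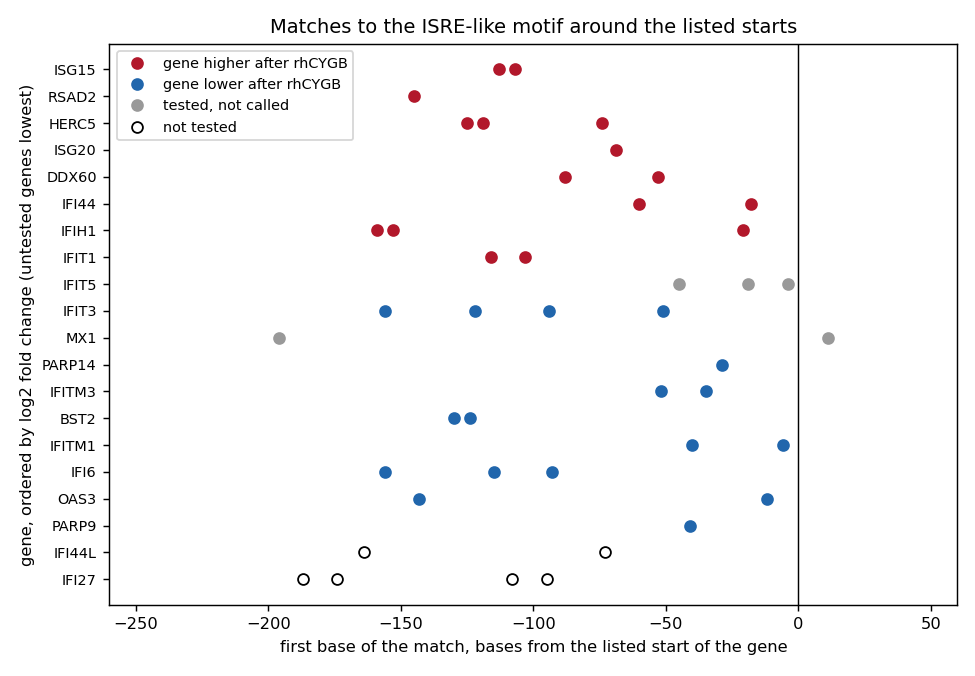
First base of each ISRE-like match (TTTCNNTTTC, either strand), in bases from the listed start of the gene at 0, for the 20 members whose promoter windows held one; colours give the edgeR call (red higher, blue lower, grey tested and not called, open not tested), and genes with several listed starts show the matches of all of them. Red and blue genes both held matches, nearly all of them before a start. IFIT1, in red, changed sign under other scalings.

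In the ISG15 system, 2 genes rose by 2-fold or more and 2 fell. ISG15 is a ubiquitin-like protein that is attached to newly made proteins, and HERC5 is its main ligase. ISG15 had 978, 1299 and 1045 counts in untreated and 3742, 3267 and 3181 in rhCYGB libraries, and the groups did not overlap. Its level rose 3.52-fold (27.0 ± 1.79 to 95.1 ± 7.71 CPM, SD, n = 3; log2 fold change 1.82 ± 0.065 SE, adjusted p = 1.18e-12 from edgeR). On the FPKM scale, which allows genes to be compared per length, ISG15 moved from the fourth to the second place among members, with the order set by the means. HERC5 had 280, 335 and 293 counts in untreated and 804, 651 and 632 in rhCYGB libraries, a rise of 2.63-fold (log2 fold change 1.40 ± 0.095 SE, adjusted p = 2.24e-09 from edgeR). In limma on log2(FPKM + 1) the HERC5 change was 0.92, under the 2-fold limit.

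The other 2 genes of the ISG15 system fell. USP18, the protease that removes ISG15 and also blocks the type I interferon receptor, had 209, 214 and 226 counts in untreated and 68, 69 and 68 in rhCYGB libraries. Its level was 2.77-fold lower (log2 fold change −1.47 ± 0.156 SE, adjusted p = 4.56e-07 from edgeR), with no overlap between groups, and just under the 2-fold limit in limma on log2(FPKM + 1) (−0.99). USP18 shares most of its sequence with the copy USP41, which is not a row of the table, so reads of the pair cannot be told apart. HERC6, a relative of HERC5 in the next position on chromosome 4, had 632 to 718 counts in untreated and 385 to 430 in rhCYGB libraries, and fell by 0.49 on the log2 scale (SE 0.091, adjusted p = 0.00016). The gap between the HERC6 and HERC5 loci was 14.0 kb in the deposited positions, whose genome build is not named.

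Among the enzymes that charge and transfer ISG15, from the list of 42 genes around the members, UBA7, the activating enzyme, had 131, 161 and 127 counts in untreated and 48, 22 and 30 in rhCYGB libraries (log2 fold change −1.87 ± 0.237 SE), and UBE2L6, the conjugating enzyme, fell by 0.42 on the log2 scale. Thus the modifier and its ligase rose, while the activating enzyme, the conjugating enzyme and the deconjugating protease fell. Within a library, counts of ISG15 were 4.62 to 6.07 times those of USP18 in untreated cells and 46.8 to 55.0 times in rhCYGB-treated cells, a ratio that no scaling between libraries can alter.

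RSAD2 (viperin), a radical SAM enzyme that makes a chain-terminating nucleotide, had 123, 111 and 102 counts in untreated and 387, 277 and 348 in rhCYGB libraries. The rise was 3.42-fold (2.76 ± 0.469 to 9.39 ± 1.05 CPM, SD, n = 3; log2 fold change 1.77 ± 0.144 SE, adjusted p = 1.93e-08 from edgeR). RSAD2 remained a weakly expressed member, with a mean of 0.751 FPKM in untreated and 2.29 FPKM in rhCYGB-treated cells, and its change in limma on log2(FPKM + 1), 0.91, was under the 2-fold limit. Of the other effectors grouped with it, ISG20, an exonuclease that degrades RNA, rose just under the 2-fold limit (223, 253 and 227 to 458, 367 and 397 counts; log2 fold change 0.99 ± 0.102 SE). ISG20 passed that limit without untreated library 1 (1.02), without rhCYGB library 2 (1.01) or without rhCYGB library 3 (1.03). SP100, a component of nuclear bodies, rose by a log2 fold change of 0.81 ± 0.045 SE, from 1601 to 1889 counts to 2498 to 2762 counts. SP100 overlaps the pseudogene HMGB1P3 in the table, which held 2 to 9 counts per library.

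TRIM22 and XAF1, which complete the group of effectors, were too low for the test. TRIM22, a ubiquitin ligase with antiviral activity, had 9, 13 and 10 counts in untreated and 0, 0 and 3 in rhCYGB libraries. XAF1, a promoter of apoptosis, had 3, 10 and 10 counts in untreated and 0, 0 and 4 in rhCYGB libraries. The floor of 3 counts corresponded to 0.0669 to 0.0902 CPM, so the rhCYGB libraries lay close to or at the floor for both genes. With no filter on low counts, TRIM22 had an adjusted p of 0.0173 and XAF1 of 0.123 in edgeR.

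**Figure D3:**
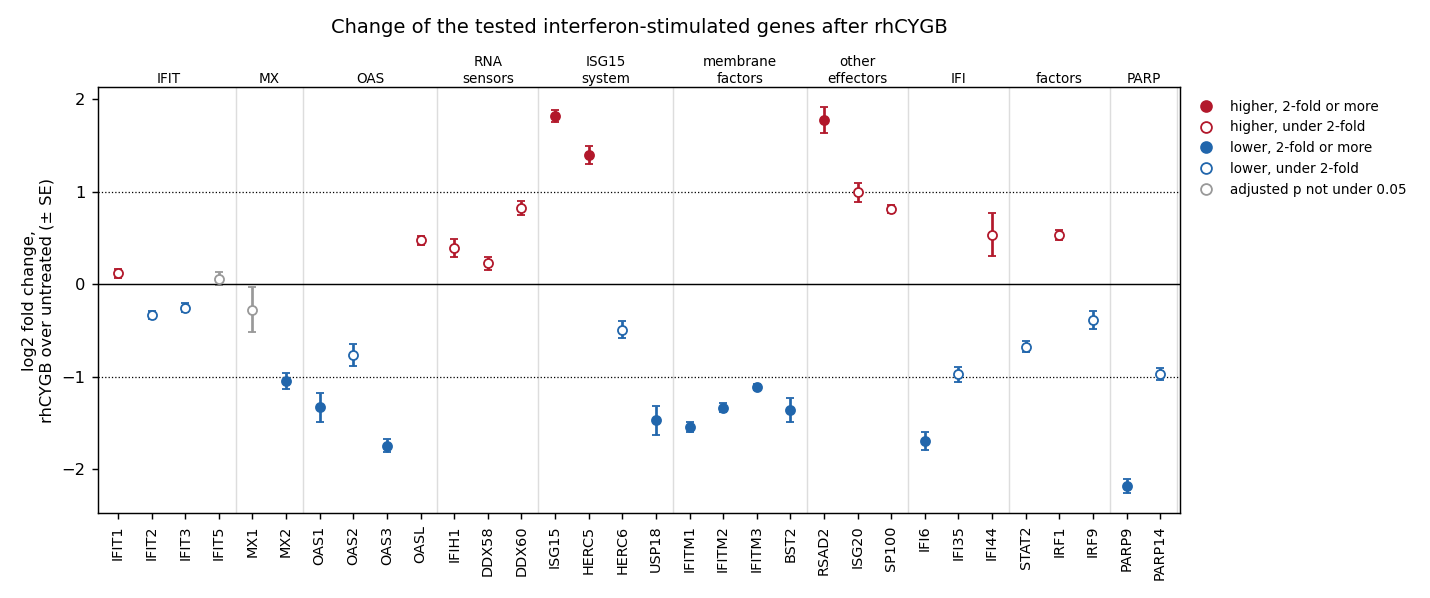
Log2 fold change of rhCYGB over untreated cells for the 32 tested members, from edgeR with bars of ± 1 SE; filled points passed adjusted p under 0.05 and the 2-fold limit (dotted lines), open coloured points passed adjusted p alone, and grey points did not pass. Higher and lower members stood side by side within the IFIT, OAS and ISG15 groups, and all 4 membrane factors were lower. IFIT1 and IFIT5, near 0, changed sign under other scalings.

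All 4 membrane restriction factors fell by 2-fold or more, as did 14.7% of all genes tested. IFITM1, IFITM2 and IFITM3 sit in membranes at the cell surface or in endosomes and hinder the entry of enveloped viruses, and BST2 (tetherin) holds budding virions at the surface. IFITM3, the member with the highest FPKM in both groups, had 10572, 12709 and 11525 counts in untreated and 4815, 4383 and 4837 in rhCYGB libraries. Its level went from 283 ± 0.63 to 131 ± 1.11 CPM (SD, n = 3), 2.17-fold lower (log2 fold change −1.11 ± 0.035 SE, adjusted p = 2.60e-13 from edgeR). IFITM1 had 5195, 6546 and 5841 counts in untreated and 2008, 1546 and 1704 in rhCYGB libraries, 2.92-fold lower (log2 fold change −1.55 ± 0.055 SE, adjusted p = 1.18e-12). IFITM2 had 3891, 4506 and 3987 counts in untreated and 1543, 1359 and 1382 in rhCYGB libraries, 2.53-fold lower (log2 fold change −1.34 ± 0.05 SE, adjusted p = 1.87e-12).

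In each of these genes every rhCYGB library lay below every untreated library. The share of all genes with such a separation was not taken, and 38.6% of all genes tested were lower at adjusted p under 0.05. The IFITM genes are close paralogs that lie within 12.8 kb on chromosome 11 in the deposited positions, so the split of reads among them is uncertain. Within a library, IFITM1 counts were 0.491 to 0.515 of IFITM3 counts in untreated and 0.352 to 0.417 in rhCYGB libraries, and IFITM2 counts were 0.346 to 0.368 and 0.286 to 0.320 of them. BST2 had 319, 434 and 342 counts in untreated and 145, 115 and 112 in rhCYGB libraries, 2.56-fold lower (log2 fold change −1.36 ± 0.129 SE, adjusted p = 1.19e-07 from edgeR). RNA came from whole cultures, so fewer cells expressing a gene and less of its RNA per cell cannot be told apart.

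The 2 PARP genes fell together. PARP9 is a poly(ADP-ribose) polymerase family protein that acts with the ubiquitin ligase DTX3L, and PARP14 is a mono-ADP-ribosyltransferase. PARP9 showed the steepest fall among the members, with 977, 1297 and 1147 counts in untreated and 218, 206 and 231 in rhCYGB libraries. The level was 4.55-fold lower (27.8 ± 1.39 to 6.11 ± 0.212 CPM, SD, n = 3; log2 fold change −2.18 ± 0.076 SE, adjusted p = 9.38e-13 from edgeR). PARP9 overlaps its partner gene DTX3L in the deposited positions, and whether counting used strand is not stated. DTX3L had 2438, 2804 and 2661 counts in untreated and 1674, 1512 and 1638 in rhCYGB libraries, a smaller fall of 0.52 on the log2 scale. PARP14 had 1326, 1610 and 1547 counts in untreated and 734, 603 and 660 in rhCYGB libraries, just inside the 2-fold limit (log2 fold change −0.97 ± 0.06 SE), which it passed without rhCYGB library 1 (−1.01).

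The OAS family, whose enzymes make 2′-5′ oligoadenylates on sensing double-stranded RNA, split by locus. OAS1, OAS3 and OAS2 lie within 105 kb on chromosome 12 and all fell, while OASL, which lies 8.01 Mb further along and codes for an inactive relative that binds the RNA sensor RIG-I, rose. OAS3 had 1082, 1324 and 1246 counts in untreated and 319, 299 and 333 in rhCYGB libraries, 3.35-fold lower (log2 fold change −1.74 ± 0.066 SE, adjusted p = 2.13e-12 from edgeR). OAS1 had 212, 302 and 229 counts in untreated and 80, 73 and 104 in rhCYGB libraries, 2.51-fold lower (log2 fold change −1.33 ± 0.157 SE, adjusted p = 1.43e-06). OAS2 had 429, 550 and 473 counts in untreated and 264, 186 and 297 in rhCYGB libraries, and its fall of 0.77 on the log2 scale stayed under the 2-fold limit.

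OASL had 1795, 2283 and 1936 counts in untreated and 2528, 2362 and 2390 in rhCYGB libraries, 1.39-fold higher (log2 fold change 0.47 ± 0.049 SE, adjusted p = 3.58e-07 from edgeR). OASL was the most abundant gene of the family per length, with a mean of 22.1 FPKM in untreated and 27.3 FPKM in rhCYGB-treated cells. Counts of OASL were 1.55 to 1.72 times those of OAS3 in each untreated library and 7.18 to 7.92 times in each rhCYGB library.

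**Figure D4:**
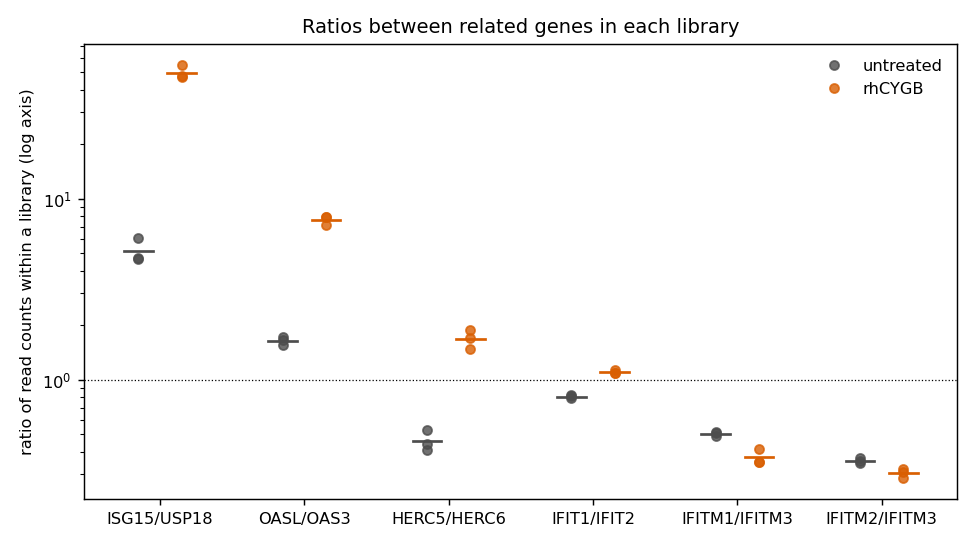
Ratio of the read counts of 2 related genes within each library (log axis), for untreated (grey) and rhCYGB (orange) cells, with a bar at the mean of 3 libraries and a dotted line at 1; the pairs were chosen after their values were seen. The ISG15/USP18 ratio went from a mean of 5.12 to 49.7 and OASL/OAS3 from 1.65 to 7.67, and HERC5/HERC6 and IFIT1/IFIT2 crossed from below to above 1.

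The pairs in this plot of ratios were picked after their values had been seen, and no test was made of them. Counts of HERC5 were 0.408 to 0.530 of those of HERC6 in untreated libraries and 1.47 to 1.89 times those of HERC6 in rhCYGB libraries. Counts of IFIT1 were 0.796 to 0.818 of those of IFIT2 in untreated and 1.09 to 1.13 times those of IFIT2 in rhCYGB libraries. In each of the 6 pairs plotted the untreated and rhCYGB libraries did not overlap. The picking could itself give this, and no share over other pairs of genes was taken.

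MX2, a dynamin-like GTPase of the nuclear envelope that restricts retroviruses, had 702, 777 and 754 counts in untreated and 311, 284 and 350 in rhCYGB libraries, 2.07-fold lower (log2 fold change −1.05 ± 0.083 SE, adjusted p = 1.42e-08 from edgeR), and under the 2-fold limit in limma on log2(FPKM + 1) (−0.93). Its neighbour MX1, a cytoplasmic GTPase and a standard reporter of interferon action, was weakly expressed and did not pass. MX1 had 96, 124 and 75 counts in untreated and 51, 83 and 77 in rhCYGB libraries, which overlap (log2 fold change −0.27 ± 0.24 SE, adjusted p = 0.306). The MX1 level of 0.647 FPKM in untreated and 0.48 FPKM in rhCYGB-treated cells was the lowest among the tested members in both groups.

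The 4 IFIT genes, whose family includes proteins that bind viral RNA by its 5′ end, moved little although they lie in 1 cluster of 119 kb on chromosome 10. IFIT2 had 2175, 2561 and 2352 counts in untreated and 1693, 1499 and 1718 in rhCYGB libraries, and fell by 0.34 on the log2 scale (SE 0.044, adjusted p = 5.30e-06 from edgeR). IFIT3 fell by 0.25 on the same scale (SE 0.049, adjusted p = 0.000206), from 2041 to 2391 counts to 1598 to 1678 counts.

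IFIT1 and IFIT5 stood closest to 0. IFIT1 had 1732, 2096 and 1901 counts in untreated and 1851, 1632 and 1942 in rhCYGB libraries, with a log2 fold change of 0.12 ± 0.047 SE (adjusted p = 0.0356 from edgeR). This direction turned with upper-quartile factors (−0.026), with unscaled totals (−0.049) and with limma on FPKM values (−0.045 with a pseudocount of 1 and −0.049 with 0.1). Over all alternatives the adjusted p of IFIT1 was between 0.0276 and 0.605. Its call was lost without untreated library 1 (adjusted p = 0.0746), untreated library 2 (0.0692), untreated library 3 (0.0562) or rhCYGB library 3 (0.113), and also with DESeq2's size factors (0.0535), its Wald test (0.0862) or at least 10 counts in every library (0.0658). IFIT5 did not pass (769, 1050 and 901 against 929, 715 and 825 counts; log2 fold change 0.06 ± 0.071 SE, adjusted p = 0.473). The upper-quartile factors and unscaled totals set all genes lower by about the same amount, with a median over all genes of −0.15 and −0.17.

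The 3 sensors and helicases that detect viral RNA rose, each by less than 2-fold. DDX60, a helicase that assists RIG-I, rose most (473, 624 and 516 to 817, 771 and 897 counts; log2 fold change 0.82 ± 0.071 SE, adjusted p = 4.19e-08 from edgeR). IFIH1 (MDA5), the sensor of long double-stranded RNA, rose by a log2 fold change of 0.39 ± 0.095 SE, and its untreated counts of 574, 694 and 795 overlapped the rhCYGB counts of 883, 655 and 833. The IFIH1 call was lost in limma on log2(FPKM + 1) and log2(FPKM + 0.1), where its log2 fold change was 0.19 and 0.23 (adjusted p = 0.114 and 0.108, within a range of 0.000122 to 0.114 over all alternatives).

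DDX58 (RIG-I), the sensor of RNA with a 5′ triphosphate, had 1192, 1523 and 1478 counts in untreated and 1429, 1243 and 1601 in rhCYGB libraries. Its log2 fold change of 0.22 ± 0.065 SE (adjusted p = 0.00607 from edgeR) was 0.08 with upper-quartile factors and 0.06 with unscaled totals, where the call was lost (adjusted p = 0.249 and 0.44), and 0.05 and 0.06 in limma with pseudocounts of 1 and 0.1 FPKM, where it was lost too (adjusted p = 0.574 and 0.569, within a range of 0.00223 to 0.574 over all alternatives).

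Of the 5 IFI genes, IFI6, a small protein of the endoplasmic reticulum and mitochondria, fell most. IFI6 had 653, 703 and 602 counts in untreated and 191, 168 and 170 in rhCYGB libraries, 3.24-fold lower (16.0 ± 1.41 to 4.93 ± 0.283 CPM, SD, n = 3; log2 fold change −1.70 ± 0.101 SE, adjusted p = 4.47e-10 from edgeR). IFI35, a protein that joins NMI in complexes, had 616, 804 and 711 counts in untreated and 312, 285 and 347 in rhCYGB libraries (log2 fold change −0.98 ± 0.083 SE). IFI35 passed the 2-fold limit without untreated library 1 (−1.01) or rhCYGB library 3 (−1.03).

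IFI44 had 59, 66 and 71 counts in untreated and 67, 71 and 111 in rhCYGB libraries, and rose by a log2 fold change of 0.54 ± 0.228 SE (adjusted p = 0.0436 from edgeR). The groups overlapped, and the call was lost without rhCYGB library 3 (log2 fold change 0.30, adjusted p = 0.251) and without each of the 3 untreated libraries (adjusted p = 0.0874, 0.118 and 0.0579 without libraries 1, 2 and 3), within a range of 0.014 to 0.251 over all alternatives. The IFI44 call was also lost with upper-quartile factors, unscaled totals, DESeq2's Wald test, limma on FPKM values and no filter. IFI44L, which lies 3.64 kb from IFI44 in the deposited positions, was undetected in every library. IFI27, another classical reporter of type I interferon, had 3, 5 and 0 counts in untreated and 0, 4 and 0 in rhCYGB libraries, at or near the floor in both groups.

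Of the 4 transcription factors on the list, 2 fell, 1 rose and 1 was undetected. STAT2, which carries the activation domain of the complex that binds the ISRE, had 876, 1095 and 985 counts in untreated and 549, 499 and 566 in rhCYGB libraries, and fell by 0.68 on the log2 scale (SE 0.061, adjusted p = 7.35e-08 from edgeR). IRF9, the DNA-binding subunit of that complex, had 521 to 589 counts in untreated and 340 to 406 in rhCYGB libraries and fell by 0.39 (SE 0.096, adjusted p = 0.00189).

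IRF1, a factor induced by interferon gamma and by NF-kB, had 1706, 1863 and 1715 counts in untreated and 2207, 2096 and 2373 in rhCYGB libraries. It rose 1.44-fold (log2 fold change 0.53 ± 0.052 SE, adjusted p = 1.96e-07 from edgeR). IRF7, which amplifies type I interferon genes, was at 0 in all 6 libraries, so it was not detectable at this depth in either group.

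The genes around the members were described from a list of 42 interferon ligands, receptors, kinases, sensors, adaptors and further effectors. Of these, 34 could be tested, and 9 were higher and 17 lower at adjusted p under 0.05, with 4 higher and 7 lower by 2-fold or more. These are 76.5% and 32.4% of the 34, against 77.6% and 27.1% of all genes tested. With upper-quartile factors, unscaled totals and limma with a pseudocount of 0.1 FPKM, 18 pathway genes were lower. In limma with a pseudocount of 1 FPKM, 19 were lower, so which genes did not pass depended in part on the scaling. The type I ligands on that list (IFNA1, IFNA2, IFNB1, IFNE, IFNK and IFNW1) and the type II ligand IFNG were at 0 in every library. The sensor ZBP1 was likewise at 0. Among type III ligands, IFNL1 had 8, 14 and 11 counts in untreated and 17, 15 and 30 in rhCYGB libraries (log2 fold change 1.10 ± 0.416 SE, adjusted p = 0.0256 from edgeR). The IFNL1 call was lost without untreated library 1 (adjusted p = 0.0861), untreated library 3 (0.0633) or rhCYGB library 3 (0.161), and with unscaled totals (0.0533) or DESeq2 (0.0696), within a range of 0.0109 to 0.161 over all alternatives. IFNL2 (10, 18 and 10 against 4, 12 and 12 counts) and IFNL3 (4, 16 and 0 against 17, 12 and 6 counts) are near-identical copies and did not pass, apart from IFNL3 without untreated library 2 (log2 fold change 2.59, adjusted p = 0.0246).

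Receptor subunits were all expressed. IFNAR1 and IFNAR2, the pair that binds type I interferons, fell by 0.25 and 0.54 on the log2 scale. IFNGR1, which binds interferon gamma, rose by a log2 fold change of 0.57, and its partner IFNGR2 did not pass (log2 fold change −0.04), although it was lower with upper-quartile factors (−0.18, adjusted p = 0.00144). Of the pair for type III interferons, IL10RB fell by 0.27, and IFNLR1 was weakly expressed and did not pass (47, 51 and 48 against 47, 58 and 60 counts). Downstream, JAK1 and JAK2 rose by log2 fold changes of 0.56 and 0.53 and TYK2 fell by 0.53.

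Inhibitors of signalling moved in opposite directions, and the kinases upstream of interferon fell. SOCS1, which blocks JAK kinases, had 80, 90 and 78 counts in untreated and 857, 740 and 877 in rhCYGB libraries, 11.4-fold higher (2.02 ± 0.118 to 23.0 ± 0.774 CPM, SD, n = 3; log2 fold change 3.51 ± 0.096 SE). SOCS3, which acts mainly on receptors of the IL-6 family, fell by 1.14 on the log2 scale (454, 512 and 414 to 143, 188 and 215 counts). IKBKE, a kinase that activates IRF3, had 252, 320 and 268 counts in untreated and 39, 36 and 57 in rhCYGB libraries (log2 fold change −2.47 ± 0.171 SE). IRF3 itself fell by 1.06 (SE 0.044), and its other kinase, TBK1, by 0.42. IRF2, a repressor of interferon-stimulated genes, did not pass (log2 fold change 0.01), and its sign turned under other scalings.

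Adaptors and sensors outside the list were mixed. TICAM1 (TRIF), the adaptor of the RNA receptor TLR3, rose by a log2 fold change of 1.61 (872, 1158 and 947 to 2695, 2465 and 2733 counts), and TLR3 did not pass. TRIM25 and RNF135, ubiquitin ligases that act on RIG-I, rose by log2 fold changes of 1.05 and 0.62. MAVS, the adaptor shared by RIG-I and MDA5, fell by 0.57, and STING1, the adaptor of DNA sensing, by 0.65, while the DNA sensor CGAS rose by a log2 fold change of 0.37, a call lost in limma on log2(FPKM + 1) (0.17, adjusted p = 0.0993, within a range of 2.01e-05 to 0.0993 over all alternatives). DHX58 did not pass (log2 fold change −0.06).

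Among further effectors, SAMHD1, which degrades deoxynucleotides, fell most (1447, 1662 and 1648 to 180, 165 and 178 counts; log2 fold change −2.99 ± 0.07 SE, 7.95-fold lower). TREX1, an exonuclease that clears cytosolic DNA, fell by 1.19 on the log2 scale. ADAR, which edits double-stranded RNA, fell by 0.22, and EIF2AK2 (PKR), the kinase that halts translation, did not pass (log2 fold change 0.06), with a sign that turned under other scalings.

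**Figure D5:**
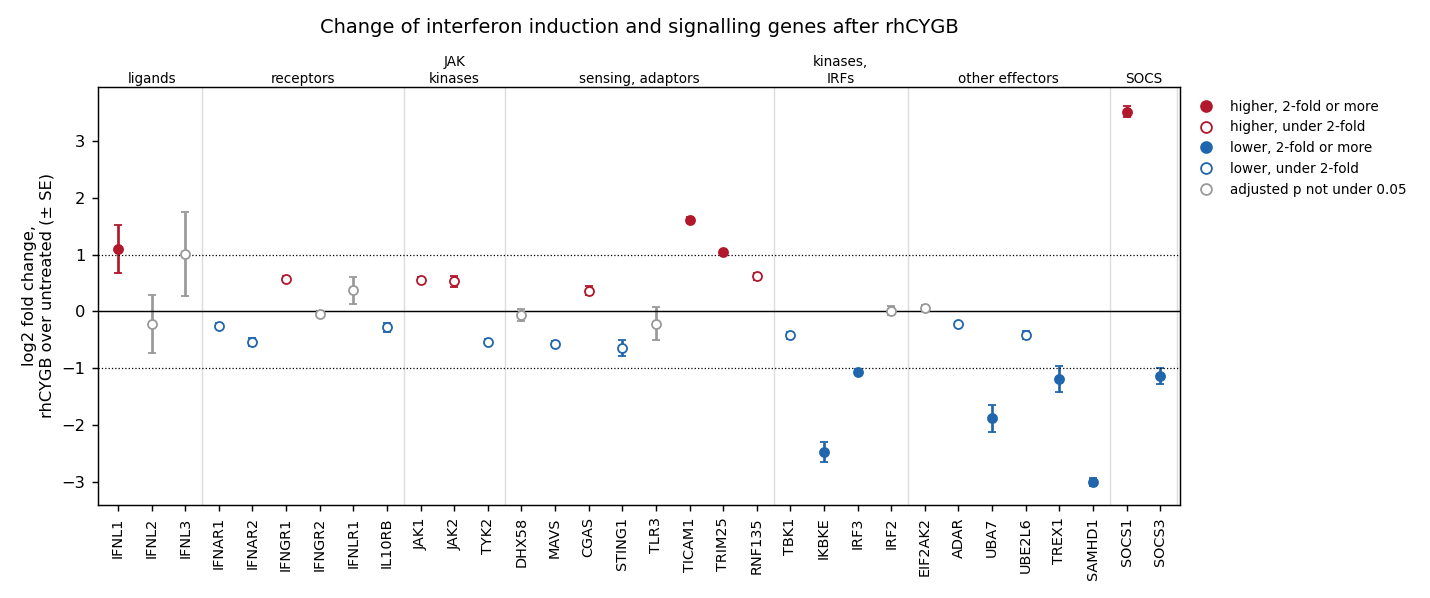
Log2 fold change of rhCYGB over untreated cells for 32 tested genes of interferon induction and signalling outside the members, from edgeR with bars of ± 1 SE, grouped by role and marked as in the plot of the members' changes. SOCS1 stood highest at 3.51 and SAMHD1 lowest at −2.99, while receptors and JAK kinases stayed within the 2-fold lines. IRF2 and EIF2AK2, near 0, changed sign under other scalings.

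Transcript variants were compared for the 11 members with a mean of at least 100 counts per library and 2 or more variants holding at least 5% of the gene's counts. The variant counts are StringTie estimates of overlapping transcripts and are described without a test. IFIT3 variant 3 had 0 counts in each untreated library and 188, 197 and 305 in the rhCYGB libraries, where it held 11.2%, 12.3% and 18.7% of the gene's counts. IFIT3 variant 2 held 41.1%, 63.6% and 54.5% of the counts in untreated and 16.4%, 22.8% and 18.0% in rhCYGB libraries, with no overlap. In OAS2, variant 3 held 11.9%, 10.9% and 11.4% in untreated and 19.7%, 26.3% and 19.9% in rhCYGB libraries. OAS2 variant 2 held 63.3%, 73.7% and 67.0% in the rhCYGB libraries. In rhCYGB libraries 1 and 3 variants 2 and 3 do not make up the whole, and the rest lay on a variant below the 5% limit over all libraries.

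In these estimates PARP9 differed in make-up as well as in level, but its split also varied between libraries of the same group. PARP9 variant 5 held 32.0%, 35.1% and 28.0% of the gene's counts in untreated libraries and 0 counts in each rhCYGB library. Variant 6 took a mean of 31.5% in untreated and 57.0% in rhCYGB libraries, and variant 1 had 61, 134 and 10 counts against 52, 119 and 68. As a share, variant 1 held 6.24%, 10.3% and 0.872% in untreated and 23.85%, 57.77% and 29.44% in rhCYGB libraries. Variant 2 had 68, 141 and 77 counts against 0 in each rhCYGB library, and variant 4 had 79, 47 and 112 against 10, 0 and 0. Variant 3 held 13.1%, 9.33% and 24.6% in untreated and 13.3%, 0% and 0% in rhCYGB libraries. In STAT2 the split between both variants differed between libraries of the same group, variant 1 holding 58.3%, 83.4% and 35.4% in untreated and 100%, 56.5% and 91.0% in rhCYGB libraries, so no difference between the groups can be read from it. SP100 varied likewise, with variant 4 at 14.2% to 37.9% in untreated and 24.3% to 62.5% in rhCYGB libraries. The rest of the members compared were OASL, IFITM3, ISG20, IFI6, IFI35 and IRF1. In each of them the share of variant 1, the largest, overlapped between untreated and rhCYGB libraries. Its mean went from 89.9% to 92.8% in OASL, from 93.5% to 92.5% in IFITM3 and from 73.4% to 82.6% in IFI6.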

How the data were processed

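RNA was sequenced from 3 untreated and 3 rhCYGB-treated libraries of MIA PaCa-2 cells, prepared with a stranded mRNA kit. Per the submitters' processing notes, the authors used FastQC 0.11.7, HISAT2 2.1.0 and StringTie 2.1.3b, and the build named there is mm10, although the genes are human RefSeq entries. The build of the deposited positions is not given in the sources used here, and they are not those of GRCh38. The authors deposited read counts per gene and per transcript, which are whole numbers and not normalized. FPKM, also deposited, is scaled by the authors to transcript length and depth. The 12 deposited TPM columns were not used.

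Counts were tested with edgeR 4.0.16 in R 4.3.3 (filterByExpr, TMM factors, glmQLFit and glmQLFTest, all 6 libraries, no block), with Benjamini-Hochberg adjustment over 14728 genes. Of 35993 genes, 15205 were at 0 in every library and 6060 were removed by the filter. Members were called at an adjusted p under 0.05, and at a fold change of 2 or more besides. CPM was computed on library sizes after TMM scaling. The floor of 3 counts covers counting error only. All 37 members are accounted for, with counts per library for every member called at 2-fold. The members and gene lists were chosen with earlier results of these data known. Of the 42 pathway genes, 2 enter the counts and are not reported here by name. Motifs were searched as plain letters in the RefSeq promoter table. Alternatives were DESeq2 1.42.0 (size factors, and its Wald test), upper-quartile factors, unscaled totals, limma 3.58.1 on log2 FPKM with pseudocounts of 1 and 0.1, no filter, at least 10 counts in every library, a replicate block, and 1 library left out at a time.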

Additional observations from a re-analysis of the deposited data

How the results depend on the processing

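Over the alternatives, members higher by 2-fold or more numbered 3, or 3 to 4 with a library left out, apart from 1 in limma with a pseudocount of 1 FPKM. That fit left ISG15 alone beside 9 lower members, and called 13.4% of all genes tested at 2-fold. The share over all genes was 27.1% in the main fit and 20.7% to 27.9% in the other alternatives. Members lower by 2-fold or more numbered 9 to 12 (10 to 12 with a library left out). At adjusted p alone, 9 members were higher with upper-quartile factors and unscaled totals and 8 in both limma fits, against 12, with 18 lower in each. Of all genes that passed in these settings, 41.0% to 42.4% were higher, against 50.2% in the main fit. Leaving out a library gave 10 to 12 higher and 18 to 19 lower members and 8 to 10 higher and 17 lower pathway genes. With a library left out, 73.3% to 75.1% of all genes tested passed, against 77.6%. The median log2 fold change of tested members was −0.50 with upper-quartile factors, −0.53 with unscaled totals, −0.47 and −0.52 in limma with pseudocounts of 1 and 0.1, −0.49 with no filter, where 35 members entered, and −0.47 to −0.35 with a library left out. Over all genes tested the median was −0.15, −0.17, −0.086, −0.15 and −0.042 in these settings in turn, and −0.018 to 0.0029 with a library left out. The cause of these shifts was not tested. Of 480 values of single members, 447 kept their direction and side of the threshold, 24 lost the call and 9 changed sign.

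The sign turned for 7 genes. With upper-quartile factors, unscaled totals, limma on log2(FPKM + 1) and limma on log2(FPKM + 0.1) in turn, the log2 fold change was −0.026, −0.049, −0.045 and −0.049 for IFIT1, −0.084, −0.11, −0.090 and −0.11 for IFIT5, −0.13, −0.15, −0.14 and −0.15 for IRF2, and −0.078, −0.10, −0.086 and −0.095 for EIF2AK2. IRF2 was also at −0.0063 with at least 10 counts in every library. With a library left out, the log2 fold change ranged from −0.11 to 0.012 for DHX58, −0.50 to 0.16 for IFNL2, −0.00011 to 0.10 for IFIT5, −0.35 to 0.0096 for TLR3 and −0.033 to 0.077 for IRF2.

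Same-numbered libraries did not deviate together (r of −0.048, 0.0072 and 0.0055 across genes, against −0.055 to 0.054 for differently numbered ones). Whether they shared a culture or a day is not stated, and these values cannot decide it. With the replicate block there were 3 higher and 10 lower members at 2-fold, 11 and 18 at adjusted p alone and a median of −0.36; IFI44 lost its call (log2 fold change 0.51, adjusted p = 0.0597), and no other member's call changed.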
